A study of Mus musculus with 2 samples.

Results

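The miR-26 family of the mouse consists of 3 microRNA genes, Mir26b, Mir26a-2 and Mir26a-1, each inside an intron of a different member of the Ctdsp gene family. The members were taken by gene symbol from GENCODE M21. They are 3 of the 2202 microRNA genes counted in each library. The data are microRNA-seq counts from 2 libraries, the labelled biological replicates 2 and 1, made from hippocampus (in the labels, a layer of it). The mice were adult males of the strain label 5xFAD/CAST, 8 to 10 months old. 5xFAD is a transgenic Alzheimer disease model whose transgenes are expressed in neurons from Thy1 promoter elements, and CAST is a wild-derived inbred strain. The libraries form a single group without controls, and the comparison is between the replicates. The labels give each library its own tissue record but 1 shared donor record, so differences between the libraries may be technical. The exact binomial p-values here take counting error alone as their error and hold no estimate of the spread between libraries. A second test, the edgeR exact test, takes that spread as its error.

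A microRNA is cut from a hairpin precursor. The bases near the 5′ end of the mature strand, the seed, pair with target messenger RNAs and lower their translation or stability. The miR-26 family is widely expressed and is abundant in brain. Its host genes Ctdsp1, Ctdsp2 and Ctdspl encode small C-terminal domain phosphatases (SCPs), which help the repressor REST silence neuronal genes in non-neuronal cells. In zebrafish, miR-26b is known to repress its own host transcript ctdsp2 during neurogenesis. The messenger RNAs of the host genes were not measured here.

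The mature sequences show why the 3 genes form a family and where they can and cannot be told apart. They are given 5′ to 3′ from RefSeq (GRCm38.p6), with the seed, bases 2 to 8, in capitals. Mir26a-1 and Mir26a-2 have 1 entry for the 5p strand because it is the same in both.
miR-26b-5p: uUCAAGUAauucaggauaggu
miR-26a-5p: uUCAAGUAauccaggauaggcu
miR-26b-3p: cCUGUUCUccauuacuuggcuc
miR-26a-2-3p: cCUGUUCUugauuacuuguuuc
miR-26a-1-3p: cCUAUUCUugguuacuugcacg

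All 3 genes share the 5p seed, and no other mature mouse sequence in the RefSeq table has it. Over the 21 bases that both have, miR-26b-5p and miR-26a-5p were identical at 19 and differed by U11C and U21C, with the miR-26b base first and positions counted from 1 at the 5′ end. The 3p strands are less alike. That of Mir26b matched that of Mir26a-2 at 18 of 22 bases and that of Mir26a-1 at 14. The 3p strands of the Mir26a pair matched at 16 of 22 bases, and A4G, with the Mir26a-1 base first, gives Mir26a-1 a 3p seed of its own.

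The hairpins show how far the identity of the Mir26a pair extends. Each is printed 5′ to 3′ from RefSeq. Capitals mark the longest stretch common to both Mir26a hairpins, and in Mir26b the longest stretch that it shares with Mir26a-1.
Mir26b: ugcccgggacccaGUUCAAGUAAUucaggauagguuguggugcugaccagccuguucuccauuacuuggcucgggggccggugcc
Mir26a-2: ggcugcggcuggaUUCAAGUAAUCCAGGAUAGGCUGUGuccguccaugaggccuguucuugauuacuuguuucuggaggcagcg
Mir26a-1: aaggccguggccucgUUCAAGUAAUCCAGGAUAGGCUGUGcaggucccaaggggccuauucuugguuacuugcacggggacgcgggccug

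The stretch common to the Mir26a pair was 25 bases long. It starts at the first base of miR-26a-5p and runs 3 bases past its end, so the whole mature strand lies within it. The longest stretch of Mir26b in Mir26a-1 was 11 bases and in Mir26a-2 it was 10 bases. No stretch of 20 bases in the Mir26b hairpin occurred in another microRNA gene, against 6 such start positions in each Mir26a hairpin. The deposited tables have a row, without a gene name, whose label is for reads that fit several places. These reads numbered 3264159 in replicate 2 and 4037293 in replicate 1, more than all reads assigned to microRNA genes. How many of them came from miR-26a was not tested, and counts per hairpin do not separate the 5p from the 3p strand.

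**Figure D1:**
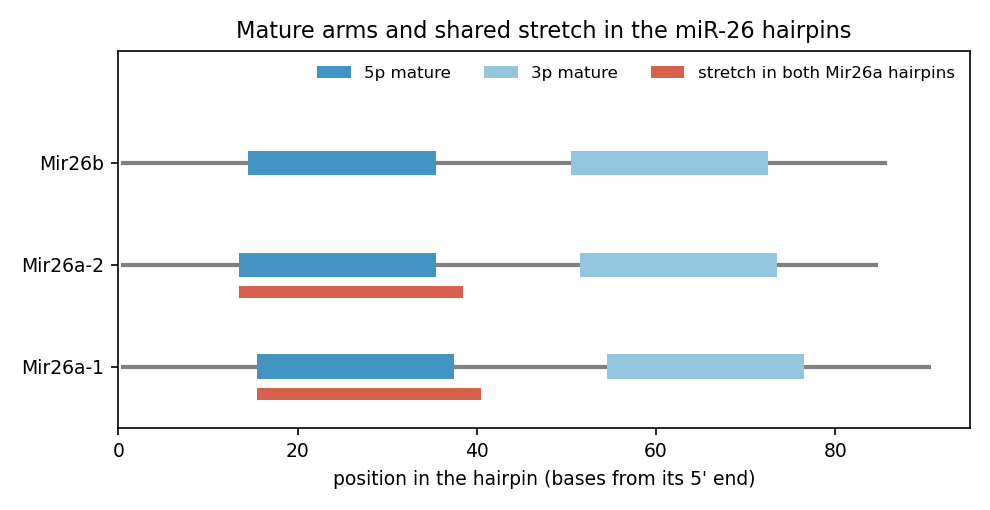
Position of the mature 5p strand (darker blue), the mature 3p strand (lighter blue) and the stretch common to both Mir26a hairpins (red) along each hairpin (grey line), in bases from the 5′ end. The red bar of 25 bases covers the whole 5p strand of Mir26a-2 and of Mir26a-1, and Mir26b has no such stretch.

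The members hold the same place in their host genes. Mir26b lies at chr1:74394310-74394394 (mm10, plus strand), in intron 4 of 6 of the Ctdsp1 transcript with a CCDS entry. Mir26a-2 lies at chr10:126995530-126995613 (plus strand), in intron 5 of 7 of Ctdsp2. Mir26a-1 lies at chr9:119031796-119031885 (plus strand), in intron 5 of 7 of Ctdspl. In each of these transcripts 2 more introns follow. All 3 hairpins lie on the strand of the host, outside its exons, and overlap no other annotated gene. The introns differ in size, with 564 bases in Ctdsp1, 1946 in Ctdsp2 and 3283 in Ctdspl. The 1 other microRNA gene in these loci, Mir546, lies 2827 bases after Mir26a-2 in an exon of Ctdsp2. It had 1 read in replicate 2 and 0 reads in replicate 1, where 0 allows up to 0.877 CPM.

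By reads assigned to a gene, Mir26b was among the most abundant microRNA genes, and both Mir26a genes were counted at a small part of its level. Reads in the row for several places, more numerous than the assigned reads, do not enter these levels and ranks. The ranks are therefore not an order of abundance in the tissue. CPM is the read count scaled to the same total of reads assigned to microRNA genes in each library. It is not divided by length, since a read stands for 1 fragment and the hairpins are 84 to 90 bases long. Mir26b had 22069 reads in replicate 2 (7825 CPM) and 47721 in replicate 1 (13945 CPM), with exact Clopper-Pearson 95% intervals of 7722 to 7928 CPM for replicate 2 and 13822 to 14070 CPM for replicate 1. It ranked 25 in replicate 2 and 14 in replicate 1 of all genes. It was high in both libraries, and its mean was 10885 ± 4328 CPM (SD, n = 2).

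Mir26a-2 had 41 reads in replicate 2 (14.5 CPM, 10.4 to 19.7) and 199 in replicate 1 (58.2 CPM, 50.4 to 66.8). Mir26a-1 had 13 reads in replicate 2 (4.61 CPM, 2.45 to 7.88) and 366 in replicate 1 (106.96 CPM, 96.3 to 118). Both were low in both libraries and lower in replicate 2, and the order of the pair changed between the libraries. Mir26a-2 averaged 36.3 ± 30.8 CPM and Mir26a-1 55.8 ± 72.4 CPM (SD, n = 2), so their means did not differ beyond the spread between libraries. Mir26a-1 ranked 384 in replicate 2 and 189 in replicate 1. Mir26a-2 ranked 304 in replicate 2 and 222 in replicate 1. Intervals are binomial bounds on the reads of each library and cover counting error only. The counts are of reads and not of molecules told apart by identifiers. None of the 3 genes had a read on the opposite strand, where a count of 0 allows up to 1.06 CPM in replicate 2 and 0.877 CPM in replicate 1.

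**Figure D2:**
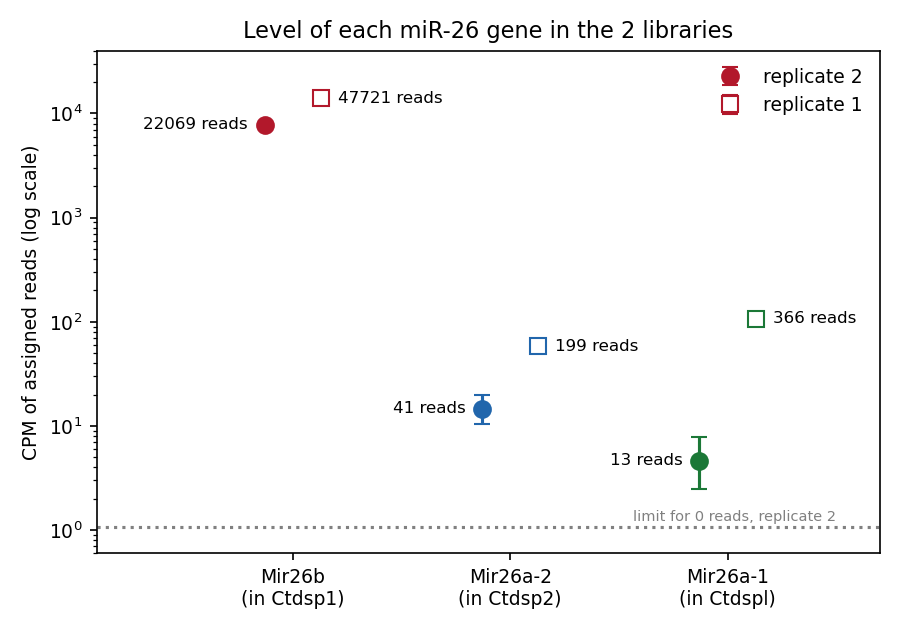
Level of each miR-26 gene in CPM of assigned reads (log scale), with replicate 2 as filled circles, replicate 1 as open squares and exact 95% counting intervals as bars, which are hidden by the symbols for Mir26b and for replicate 1. The dotted line is the level that 0 reads allow in replicate 2. Mir26b stands at 7825 and 13945 CPM, and Mir26a-2 and Mir26a-1 between 4.61 and 106.96 CPM.

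The family took 0.784% of assigned reads in replicate 2 and 1.41% in replicate 1, with 95% Clopper-Pearson bounds of 0.774 and 0.795 for replicate 2 and 1.40 and 1.42 for replicate 1. Mir26b supplied 99.8% of the family's reads in replicate 2 and 98.8% in replicate 1. In the order of mean CPM, Mir26b stood at place 19, between Mir652 (11410 ± 1680 CPM) and Mir770 (10597 ± 972 CPM). Neighbours were picked by mean CPM, so their closeness in level is not a finding. Mir26a-1 stood at place 227, between Mir1188 (56.5 ± 6.13 CPM) and Mir412 (54.0 ± 11.7 CPM). Mir26a-2 stood at place 252, between Mir184 (37.3 ± 2.16 CPM) and Mir122 (33.2 ± 3.62 CPM), the last a liver microRNA. If reads that fit several places were counted in their own row alone, as the name of that row reads, the levels of the Mir26a genes stand for reads placed at 1 gene. How such reads were handled is not stated in the notes used here.

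All 3 members were lower in replicate 2 than in replicate 1, by unequal amounts. The log2 ratio of replicate 2 over replicate 1, on library sizes scaled by TMM (a method that sets the bulk of genes to no difference), was -0.93 for Mir26b (95% interval -0.96 to -0.91), -2.10 for Mir26a-2 (-2.62 to -1.61) and -4.64 for Mir26a-1 (-5.56 to -3.84). These are 1.91-fold, 4.28-fold and 24.9-fold lower levels in replicate 2. A gene was tested with at least 10 reads in each library, which all 3 members had, Mir26a-1 with 13 reads in replicate 2. By the two-sided exact binomial test with Benjamini-Hochberg adjustment over 389 tested genes, the adjusted p was 1.11e-21 for Mir26a-2 and 4.04e-81 for Mir26a-1, and for Mir26b it was at or below 1e-300, the smallest value written. This test compares the reads of 2 libraries and not conditions.

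The count of 3 called members is read against a high background. The test called 67.6% of all tested genes at an adjusted p under 0.05 (263 of 389), and 33.7% were called lower in replicate 2. The median log2 ratio was -2.10 over the members and 0.053 over all tested genes. With the spread between the libraries as the error (edgeR exact test, common biological coefficient of variation 0.41), 0.514% of tested genes were called, Mir26a-1 (adjusted p = 0.0039) and Mir183 (adjusted p = 0.016), and 23 genes had an unadjusted p under 0.05. Mir26a-2 had an adjusted p of 0.47 and an unadjusted p of 0.024, and Mir26b had an adjusted p of 1 and an unadjusted p of 0.28. The edgeR error comes from the libraries it compares, so a p that misses the threshold does not show that a gene was alike in them.

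Mir26a-1 had the lowest log2 ratio of all 389 tested genes, Mir26a-2 stood at place 12 from the lowest and Mir26b at place 47. From 0.5 to 2 times the summed reads of Mir26a-1 there were 70 tested genes. Their log2 ratios reached 2.28, with a median of 0.13. Mir26a-1 is the lowest there by necessity, being the lowest of all tested genes. In the same range around Mir26a-2 there were 79 tested genes, 5 of them at or below its log2 ratio, itself included. Around Mir26b there were 24, and 3 were at or below its log2 ratio, itself included. Among the 20 genes of highest mean CPM, the other 19 had log2 ratios of -0.79 to 0.66, all above that of Mir26b. That range depends on the cut, since Mir26b is itself at place 19. Past the cut, Mir125a at place 21 had a log2 ratio of 1.09 and Mir143 at place 24 had -1.32.

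**Figure D3:**
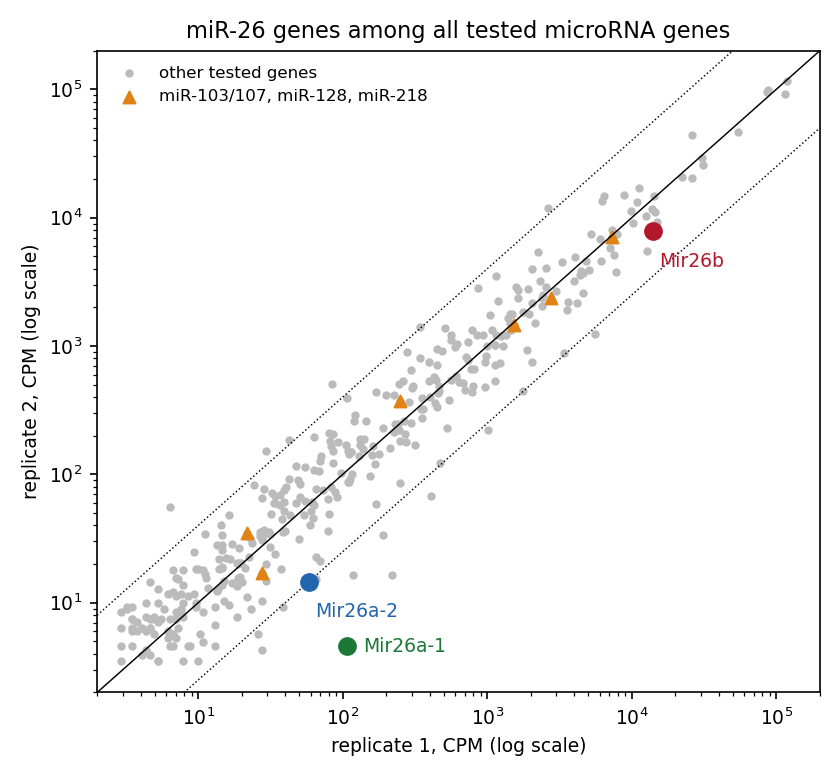
CPM in replicate 2 (vertical) against replicate 1 (horizontal), both on log scales, for the 389 tested genes, with the miR-26 genes as large coloured points and the miR-103, Mir107, miR-128 and miR-218 genes as orange triangles. The solid line marks equal CPM and the dotted lines a 4-fold difference. Mir26b lies between the solid and the lower dotted line at the upper end, and Mir26a-1 lies furthest below it, at 4.61 CPM in replicate 2 and 106.96 CPM in replicate 1.

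The members differed from each other in how far the libraries differed. Reads of Mir26b outnumbered those of Mir26a-1 by 1698 to 1 in replicate 2 (95% interval 993 to 3189) and by 130 to 1 in replicate 1 (118 to 145). The ratio was 13.0 times as high in replicate 2 (exact conditional 95% interval 7.52 to 24.7). Reads of Mir26b outnumbered those of Mir26a-2 by 538 to 1 in replicate 2 (397 to 750) and by 240 to 1 in replicate 1 (209 to 277), a ratio 2.24 times as high in replicate 2 (1.60 to 3.22). Within the Mir26a pair, Mir26a-2 had 3.15 reads for each of Mir26a-1 in replicate 2 (1.66 to 6.41) and 0.544 in replicate 1 (0.455 to 0.648), a ratio 5.78 times as high in replicate 2 (2.95 to 12.1). None of the 3 intervals included 1. They cover counting error in 2 libraries, and no p was computed. By counting error alone, 67.6% of all tested genes were called different between the libraries. The share of all gene pairs whose interval leaves out 1 was not computed, so these ratios are a description.

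Other features of the libraries also differed, some in the same direction as the miR-26 genes and some not, and their part in the result was not tested. Calls in the lists below are read against the 33.7% of all tested genes that were called lower in replicate 2. Replicate 2 had 22.6% unmapped reads and replicate 1 had 16.6%. Of 8 microRNAs of epithelia and sensory organs, all 6 tested were called lower in replicate 2, with summed levels of 111 CPM in replicate 2 and 712 CPM in replicate 1, and none was at 0 in both. All 3 mural and endothelial microRNAs were called lower, with summed levels of 13157 CPM in replicate 2 and 21670 CPM in replicate 1, but by unequal amounts. The mural Mir143 had 5473 CPM in replicate 2 and 12791 CPM in replicate 1, and Mir145a had 219.8 CPM in replicate 2 and 1009 CPM in replicate 1. The endothelial Mir126a had 7464 CPM in replicate 2 and 7871 CPM in replicate 1 (log2 ratio -0.18). Of 5 choroid plexus and ependyma microRNAs 3 were called lower and 1 higher, with sums of 1638 CPM in replicate 2 and 3416 CPM in replicate 1. The 12 brain microRNAs summed to 33630 CPM in replicate 2 and 32852 CPM in replicate 1, and the 6 of liver and striated muscle to 50.3 CPM in replicate 2 and 51.4 CPM in replicate 1. The 5 blood microRNAs summed to 239 CPM in replicate 2 and 380 CPM in replicate 1, with 1 called lower and 1 higher. Mir142, of white blood cells, had 169 CPM in replicate 2 and 317 CPM in replicate 1. Mir451a, of red blood cells, had 33.3 CPM in replicate 2 and 21.6 CPM in replicate 1. Of the brain list, Mir124a-2 and Mir124a-3 were at 0 reads in both libraries and Mir124a-1 had 5 in each. These hairpins have 24 to 30 start positions of a 20-base stretch found in another microRNA gene, so their counts do not measure the level of miR-124 in the tissue. In bulk tissue, fewer cells of a type and less of the RNA per cell cannot be told apart.

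The GC content of the hairpin was 58.8% for Mir26b, 53.6% for Mir26a-2 and 60.0% for Mir26a-1, all above the median of 52.1% over tested genes. Over tested genes the log2 ratio was higher by 0.23 for each 10 points of GC content. With the trend taken off, the log2 ratios were -1.12 for Mir26b, -2.16 for Mir26a-2 and -4.85 for Mir26a-1.

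Genes whose log2 ratios were most like those of the members were found over 2 libraries alone, among genes with at least 100 reads in 1 library and 10 in the other. Nearest to Mir26b were Mir378a, Mir298 and Mir383, within 0.072 of its log2 ratio. Nearest to Mir26a-2 were Mir376a, Mir1298 and Mir140, within 0.067. Mir26a-1 had no close match: Mir183, with 46 reads in replicate 2 and 748 in replicate 1, was 0.79 away, followed by Mir182 at 1.67 and Mir380 at 1.95.

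Several other microRNA families also lie in introns of related host genes, and their duplicated copies were set beside the Mir26a pair. These are miR-128 (in R3hdm1 and Arpp21), a neuronal microRNA that restrains excitability, miR-218 (in Slit2 and Slit3), known from motor neurons, and miR-103 with Mir107 (in Pank genes), linked to lipid and glucose metabolism. In each, as in the Mir26a pair, the copies share 1 whole mature strand, inside a common stretch of 23 bases in the miR-128 pair, 22 in the miR-218 pair and 27 in the miR-103 pair. Their levels were unlike one another. Mir128-1 had 7046 CPM in replicate 2 and 7355 in replicate 1, and Mir128-2 had 1447 in replicate 2 and 1532 in replicate 1. Both were above the Mir26a genes in each library. Mir218-2 had 374 CPM in replicate 2 and 250 in replicate 1. Mir218-1 had 35.1 in replicate 2 and 21.6 in replicate 1, and Mir103-2 had 17.0 in replicate 2 and 27.8 in replicate 1, near the range of the Mir26a genes. Mir103-1 had 8 reads in replicate 2 and 9 in replicate 1 and was not tested.

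Mir107, like Mir26b, has no mature strand whole in another hairpin. The parallel stops there, since Mir107 shares a stretch of 24 bases with each miR-103 hairpin, against 11 bases at most between Mir26b and a Mir26a hairpin. Mir107 has 9 start positions of a 20-base stretch found in another microRNA gene, and Mir26b has none. It had 2350 CPM in replicate 2 and 2773 CPM in replicate 1, above both miR-103 genes in each library. Of the 6 tested genes in these families, 4 were called lower in replicate 2 and 2 higher, with log2 ratios of -0.80 for Mir103-2, -0.34 for Mir107, -0.18 for Mir128-2, -0.16 for Mir128-1, 0.48 for Mir218-2 and 0.60 for Mir218-1. The 95% intervals of Mir26a-1 and Mir26a-2 did not overlap any of these 6, and that of Mir26b overlapped Mir103-2 alone (-1.34 to -0.29). These intervals cover counting error alone, and 67.6% of all tested genes were called. Within the 6, the intervals of Mir107 (-0.38 to -0.29) and Mir128-1 (-0.19 to -0.13) did not overlap either. The share of non-overlap over all tested genes was not computed, so non-overlap cannot be read as setting the members apart. The median of the 6 was -0.17.

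**Figure D4:**
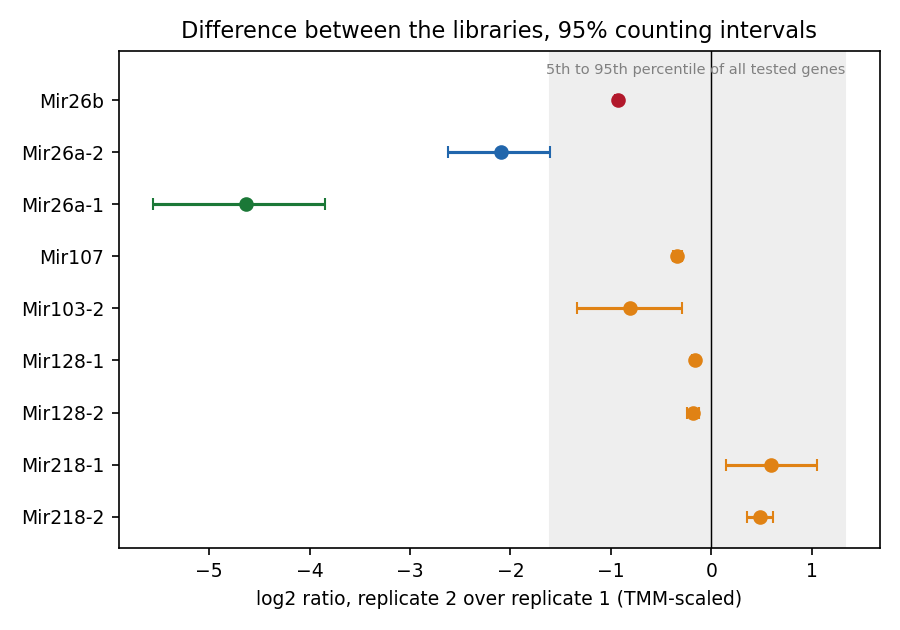
Log2 ratio of replicate 2 over replicate 1 on TMM-scaled counts, with exact 95% counting intervals as bars, for the miR-26 genes and the tested genes of the miR-103, Mir107, miR-128 and miR-218 families. The grey band holds the log2 ratios of all tested genes from percentile 5 (-1.60) to percentile 95 (1.33), and the points of Mir26a-2 (-2.10) and Mir26a-1 (-4.64) lie to its left.

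Among genes with 2 mature strands in RefSeq, 61 had 1 strand whole in another hairpin, as the Mir26a genes do, and 573 had neither, as Mir26b. In 23 more genes both strands were whole in another hairpin. The median of mean CPM was 0 over the 23 genes, 19.9 over the 61 and 2.73 over the 573. A mean above 1000 CPM was found for 1 of the 23 (4.35%), 6 of the 61 (9.84%) and 60 of the 573 (10.5%). Mir26b was above that level and both Mir26a genes were below it. These counts are a description, since copies of a gene are not independent.

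MicroRNAs linked to REST and its SCP cofactors were described beside the family, which sits inside the SCP genes. The 8 genes were the miR-124 copies, known to repress Ctdsp1, the miR-9 copies, known to target REST, and Mir132 and Mir212, whose cluster REST represses. Of these, 4 were tested, with 2 called lower in replicate 2, 1 higher and 1 not called, and a median log2 ratio of -0.25. Over all tested genes 67.6% were called and 33.7% were called lower in replicate 2, so these calls are a description. Mir132 had 11795 CPM in replicate 2 and 13708 CPM in replicate 1 (log2 ratio -0.32, -0.34 to -0.30). That was close to Mir26b in replicate 1 (13945 CPM) and above it in replicate 2 (7825 CPM). Mir212, its cluster neighbour, had 416 CPM in replicate 2 and 198 in replicate 1 (0.97, 0.84 to 1.11). Mir9-1 (-1.34, -2.11 to -0.62) was lower in replicate 2, with 22 reads in replicate 2 and 63 in replicate 1. Mir9-3 (-0.19, -0.49 to 0.11) had 166 reads in replicate 2 and 214 in replicate 1. Mir9-2 had 3 reads in replicate 2 and 7 in replicate 1. Both mature strands of each of the 3 miR-9 genes are whole in another hairpin, so these counts are no measure of miR-9 as a whole.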

How the data were processed

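MicroRNA-seq was deposited for 2 libraries of 1 group. The authors' files hold raw read counts per microRNA gene in 3 columns (without regard to strand, gene strand, opposite strand), on mm10 with GENCODE M21 according to the deposited notes. Not given in the sources used here are the aligner and the counter. The gene-strand column was used. The 4 rows that name no gene (67.0% of replicate 2, 64.8% of replicate 1) did not enter library sizes, which were 2820468 assigned reads in replicate 2 and 3421977 in replicate 1. All 2202 gene IDs matched M21, and 1018 symbols, all 3 members among them, matched a RefSeq mature sequence. Sequence differences between CAST and the reference genome were not analysed here.

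CPM, exact Clopper-Pearson intervals and, for genes with at least 10 reads in each library, two-sided exact binomial tests against TMM-scaled sizes (edgeR 4.0.16, R 4.3.3) with Benjamini-Hochberg adjustment across all tested genes were computed. A single group gives no contrast for a quasi-likelihood fit. Ratios between members used exact conditional intervals (SciPy 1.17.1). A count of 0 was taken to allow up to 3 reads. Alternatives were library totals, DESeq2 1.42.0 size factors, no low-count filter, the column without regard to strand, a linear GC trend, the edgeR exact test, all reads as denominator and single libraries. Genes were named by rule: the members, the listed families, for each member the 3 nearest log2 ratios and its neighbours in mean CPM, microRNA genes in the host loci and those sharing the seed. Members and lists were chosen with earlier results of these data known.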

Additional observations from a re-analysis of the deposited data

How the results depend on the processing

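The log2 ratios of the 3 members stayed below 0 under the 6 alternatives run for them. With library totals, DESeq2 size factors, no low-count filter or counts without regard to strand, each stayed past the threshold of the exact binomial test. The values lay between -0.99 and -0.83 for Mir26b, reached down to -2.15 for Mir26a-2, and lay between -4.69 and -4.54 for Mir26a-1. With the edgeR exact test, the call ended for Mir26b (log2 ratio -0.93, adjusted p = 1) and for Mir26a-2 (-2.10, adjusted p = 0.47) and held for Mir26a-1, and the number of called genes was 2 in place of 263; that test takes the spread between the libraries as its error. With the GC trend taken off, the log2 ratio of Mir26b was -1.12, outside its counting interval. The shift is by construction the value of the fitted trend at the GC content of its hairpin. With all reads as the denominator, Mir26b had 3747 CPM and the family 0.378% of reads, since the denominator then holds the rows that name no gene. No paired analysis was possible because there is 1 group. The main limits are 2 libraries of 1 group and, for Mir26a-1, 13 reads in replicate 2.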
